A study of Mus musculus with 18 samples.

Results

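The 9 genes described here encode proteins that move, trap or limit sterols and membrane lipids and are known targets of the liver X receptors (LXRs): Abca1, Abcg1, Abcg5, Abcg8, Mylip, Rnf145, Lpcat3, Tmem86a and Pltp. They are 9 of the 55487 genes in the count table, matched by symbol, and each was found once. They were chosen by name as an LXR group with the fold changes of the comparisons below already known, so the counts and adjusted p-values given for them describe the fit and are not independent evidence. LXRs are nuclear receptors that bind DNA together with a retinoid X receptor (RXR) and are switched on by oxysterols, the oxidised forms of cholesterol. In hepatocytes and macrophages they are known for raising cholesterol efflux, biliary sterol secretion and fatty acid synthesis when cells are loaded with sterol.

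Liver RNA was sequenced from 18 male C57BL/6J mice, 1 library per mouse and 6 mice per group. CON-GFP mice ate a purified control diet, FPC-GFP mice ate a high-fat diet with added fructose, palmitate and cholesterol (FPC) and drank fructose-glucose water, and FPC-LIPA mice had the FPC regimen together with human LIPA, the gene for lysosomal acid lipase (LAL), which frees cholesterol and fatty acids from lipoprotein lipids in the lysosome. All 3 groups carried an AAV8 vector with the TBG promoter, which directs expression to hepatocytes, and in the other groups this vector encoded GFP. Mice were 7 weeks old when bought, were injected 1 week before the diets began, ate them for 16 weeks and were fasted for 4 h before collection.

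Total counts per library lay between 16632146 and 37739301. They were lowest in FPC-LIPA 37b, CON-GFP 2 (17741598) and FPC-GFP 20 (17813507), and every other library had at least 25312928. Human LIPA is not a row of the mouse count table, so the transgene could not be checked in it, and the mouse Lipa gene was at 340 ± 61.4 CPM (counts scaled to library size; SD, n = 6) in FPC-GFP and 293 ± 51.2 in FPC-LIPA (log2 fold change −0.16, adjusted p = 0.513, edgeR). FPC-LIPA libraries 36, 39 and 37b stood apart from the other 15. In them cytosolic ribosomal protein genes took between 6.48% and 8.15% of counts, against 1.44% to 2.95% elsewhere, and the log2 level fell with gene length with slopes from −0.25 to −0.18, against −0.0099 to 0.17 elsewhere. Mitochondrially encoded genes took 1.87% to 3.31% of their counts, against 3.41% to 11.7% elsewhere. Each sample description ends in an S with a number, which is called the sheet number here. It lay outside 55 to 68 in library 37b, CON-GFP 1, CON-GFP 2 and FPC-GFP 20 and within 55 to 68 in the other 14 libraries. What these numbers stand for, and whether they mark a batch, is not given in the sources used here. For the 9 genes, and for the other genes named below as changed with LIPA, fold changes are also given with FPC-LIPA livers 31, 33 and 34 alone.

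LXR and RXR bind as a pair to a direct repeat of the half-site AGGTCA with 4 bases between the copies (DR4), here searched on both strands as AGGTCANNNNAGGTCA. RefSeq promoter windows on GRCm38.p6, from 250 bases before to 50 after each start site, were at hand for 8 of the 9 genes (11 windows), all except Abcg1. No window of the 8 genes held the half-site letter for letter, which 16.3% of all 32851 windows did. The closest matches to the DR4, with 3 mismatches in the 12 defined letters, lay in the window of Abca1 and in 1 of the 3 windows of Rnf145, and 21.9% of all windows hold a match this close. They are printed because these matches resemble each other. In the sequences of the 250 bases before each start, written 5′ to 3′ on the strand of the gene, capitals mark the 16 letters of the match.

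Abca1, chr4:53159896-53160145, minus strand: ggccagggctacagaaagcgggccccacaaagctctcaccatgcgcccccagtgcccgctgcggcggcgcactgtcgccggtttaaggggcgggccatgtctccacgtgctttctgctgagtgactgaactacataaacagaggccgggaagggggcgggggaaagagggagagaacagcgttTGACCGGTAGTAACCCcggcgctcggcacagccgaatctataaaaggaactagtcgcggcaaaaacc

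Rnf145, chr11:44520039-44520288, plus strand: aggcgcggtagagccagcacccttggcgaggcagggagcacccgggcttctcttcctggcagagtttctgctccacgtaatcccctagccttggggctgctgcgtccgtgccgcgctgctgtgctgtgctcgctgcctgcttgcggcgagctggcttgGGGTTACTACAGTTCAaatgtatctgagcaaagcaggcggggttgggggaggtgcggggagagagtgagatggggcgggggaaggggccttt

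The Abca1 match was on the opposite strand and began 67 bases before the start, and the Rnf145 match was on the strand of the gene and began 92 bases before it. Read on the strand of the motif, 14 of their 16 letters were identical. Within 2 letters of the Abca1 match came 6 of the 32851 windows, or 0.0183%, in a search made after the matches were seen. The limit of 2 letters was taken from the Rnf145 match, so the windows of Abca1 and Rnf145 were among the 6 by design. The other windows belonged to Fasn, which encodes fatty acid synthase, to Srebf1, which encodes the lipogenic factor SREBP1, and to the gene model Gm52617 with 2 windows. Half-sites are in capitals and the 4 spacer letters in lower case, with positions counted from 1 at the 5′ end of the match and the Abca1 letter given first.
Abca1: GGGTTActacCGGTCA
Fasn, 225 bases before the start, no difference: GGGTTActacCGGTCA
Rnf145, C11A and G13T: GGGTTActacAGTTCA
Srebf1, 182 bases before the start, A9G and C10G: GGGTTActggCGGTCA
A match in letters is a description of the window and does not show that a receptor binds there.

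The first comparison asked what the FPC diet did with the GFP vector in both groups. All 9 genes had positive fold changes in FPC-GFP against CON-GFP, and 5 of the 9 rose: Tmem86a, Rnf145, Pltp, Abcg1 and Lpcat3. Of all 14307 genes tested, 12.9% rose and 10.9% fell at an adjusted p under 0.05 (edgeR quasi-likelihood test, Benjamini-Hochberg adjustment over all genes tested). At the study's threshold for a differentially expressed (DE) gene, which also asks for a fold of at least 2, 4 of the 9 were DE, all of them higher, against 4.76% of all genes higher and 2.44% lower. The median log2 fold change was 0.61 over the 9 genes and 0.012 over all genes tested. In bulk liver a change in the RNA of each cell and a change in the number of cells of a type cannot be told apart.

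Tmem86a (ENSMUSG00000010307, chr7:47050601-47054777, plus strand, GRCm38), which encodes a lysoplasmalogenase that removes the vinyl-ether chain from lysoplasmalogens, changed most. Its level lay between 6.55 and 12.5 CPM (median 10.1) in the 6 CON-GFP livers and between 47.8 and 76.5 CPM (median 62.4) in the 6 FPC-GFP livers. The lowest FPC-GFP liver was thus above the highest CON-GFP liver, and the fold was 6.33 (log2 fold change 2.66, SE 0.16, adjusted p = 5.02e-07, edgeR). By p-value the gene ranked 1 of the 14307 tested.

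Rnf145 (ENSMUSG00000019189, chr11:44518964-44565520, plus strand), an E3 ubiquitin ligase of the endoplasmic reticulum that acts on sterol synthesis through HMG-CoA reductase, lay between 10.7 and 22.1 CPM (median 16.1) in CON-GFP and between 41.2 and 64.8 CPM (median 48.0) in FPC-GFP, again without overlap. Its fold was 3.16 (log2 fold change 1.66, SE 0.17, adjusted p = 5.75e-05, edgeR) and its rank 13. Abcg1 (ENSMUSG00000024030, chr17:31057675-31117988, plus strand), which passes cholesterol to high-density lipoprotein particles, had the lowest level of the group. It lay between 3.83 and 6.66 CPM in CON-GFP and between 8.48 and 12.5 CPM in FPC-GFP, 2.31-fold higher (log2 fold change 1.21, SE 0.15, adjusted p = 0.000198, edgeR).

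Lpcat3 and Pltp act on phospholipids. Lpcat3 (ENSMUSG00000004270, chr6:124663027-124704418, plus strand), which puts polyunsaturated chains into membrane phospholipids, lay between 92.3 and 147 CPM (median 119.9) in CON-GFP and between 159 and 209 CPM (median 183) in FPC-GFP, 1.53-fold higher with no overlap (log2 fold change 0.61, SE 0.12, adjusted p = 0.00261, edgeR). Groups did not overlap for 4 of the 9 genes, namely Tmem86a, Rnf145, Abcg1 and Lpcat3, against 10.4% of all genes tested in either direction. Pltp (ENSMUSG00000017754, chr2:164839518-164857711, minus strand), the phospholipid transfer protein of plasma lipoproteins, spread widely, from 11.1 to 83.4 CPM in CON-GFP and from 37.4 to 120.2 CPM in FPC-GFP. Its fold was 2.72 (log2 fold change 1.44, SE 0.40, adjusted p = 0.0183, edgeR), and CON-GFP 8 at 83.4 CPM lay above FPC-GFP 20 at 37.4 CPM. Exons of Pltp share 19.3% of their length with Ctsa and those of Lpcat3 10.2% with Emg1, on the opposite strand in both cases, so both levels are uncertain to the extent that reads of these stretches were counted. With all 18 libraries in 1 fit neither Lpcat3 (adjusted p = 0.0840, edgeR) nor Pltp (adjusted p = 0.0683) passed.

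The other 4 genes did not pass the test. Abca1 (ENSMUSG00000015243, chr4:53030787-53159895, minus strand), which loads cholesterol and phospholipid onto lipid-poor apolipoprotein A-I, was at 107 ± 35.1 CPM in CON-GFP livers and at 108 ± 34.4 CPM in FPC-GFP livers (log2 fold change 0.020, SE 0.22, adjusted p = 0.955, edgeR). In each of them 1 liver stood high, CON-GFP 2 at 177 CPM and FPC-GFP 20 at 176 CPM, and the other 10 livers lay between 82.1 and 109 CPM. Both high livers have sheet numbers outside 55 to 68 and low total counts (17741598 and 17813507). CON-GFP 1, also outside 55 to 68, was not high, at 88.5 CPM. Nor was FPC-LIPA 37b, outside as well and with the lowest total of all (16632146), at 75.1 CPM. Without the libraries outside 55 to 68 the log2 fold change was 0.0081. Mylip (ENSMUSG00000038175, chr13:45389742-45412022, plus strand), the E3 ligase that marks lipoprotein receptors for breakdown, was at 8.83 ± 2.03 CPM in CON-GFP livers and at 11.8 ± 1.65 CPM in FPC-GFP livers (log2 fold change 0.42, SE 0.15, adjusted p = 0.0553, edgeR). Leaving out CON-GFP 6, the highest of its group (0.53, adjusted p = 0.0171), or FPC-GFP 20, the lowest of its group (0.46, adjusted p = 0.0470), took Mylip past the test. It also passed with library size alone (0.60, adjusted p = 0.0211), the DESeq2 Wald test (adjusted p = 0.0434) and the edgeR exact test (adjusted p = 0.0434), 5 of the 23 alternatives in all.

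Abcg5 and Abcg8 encode the subunits of the transporter that secretes sterols into bile. Abcg5 (ENSMUSG00000040505) spans chr17:84658234-84683011 on the minus strand of GRCm38 and Abcg8 (ENSMUSG00000024254) chr17:84676302-84700333 on the plus strand, and 82 exonic bases are shared between them. RefSeq gives 1 promoter window for Abcg5, with its start site at 84683011, and 2 for Abcg8, with start sites at 84676302, inside the Abcg5 gene, and at 84683121, which lies 110 bases from that of Abcg5 on the opposite strand. The 109 bases between this pair of start sites are printed because the genes start outward from them, with the closest match to the DR4 in capitals (4 mismatches, on the strand of Abcg5; 76.9% of all windows hold a match at least this close).

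Abcg5 to Abcg8, chr17:84683012-84683120, plus strand: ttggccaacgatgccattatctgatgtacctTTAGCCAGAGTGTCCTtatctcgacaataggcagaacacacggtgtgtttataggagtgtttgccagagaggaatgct

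In CON-GFP the livers were alike in Abcg5, from 119.7 to 143 CPM (coefficient of variation 8.12%). In FPC-GFP the gene ran from 54.0 CPM in liver 11 to 249 CPM in liver 20 (coefficient of variation 41.7%), and Abcg8 ran from 45.1 to 249 CPM in the same livers. Neither gene passed the test, with log2 fold changes of 0.28 for Abcg5 (SE 0.25, adjusted p = 0.431, edgeR) and 0.47 for Abcg8 (SE 0.29, adjusted p = 0.247, edgeR). Leaving out FPC-GFP 11, the lowest liver of its group in both genes, took Abcg8 to a log2 fold change of 0.66 with an adjusted p of 0.0312 (edgeR). Leaving out FPC-GFP 20, the highest liver in both, took Abcg8 to 0.25 and Abcg5 to 0.099. Abcg8 passed in 1 of the 23 alternatives and was at 0.19 with sheet numbers from 55 to 68. Both genes were lowest in the same liver in each group, namely CON-GFP 6, FPC-GFP 11 and FPC-LIPA 37b. For Abcg5 in CON-GFP the next liver was close, at 124 CPM beside 119.7 CPM.

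**Figure D1:**
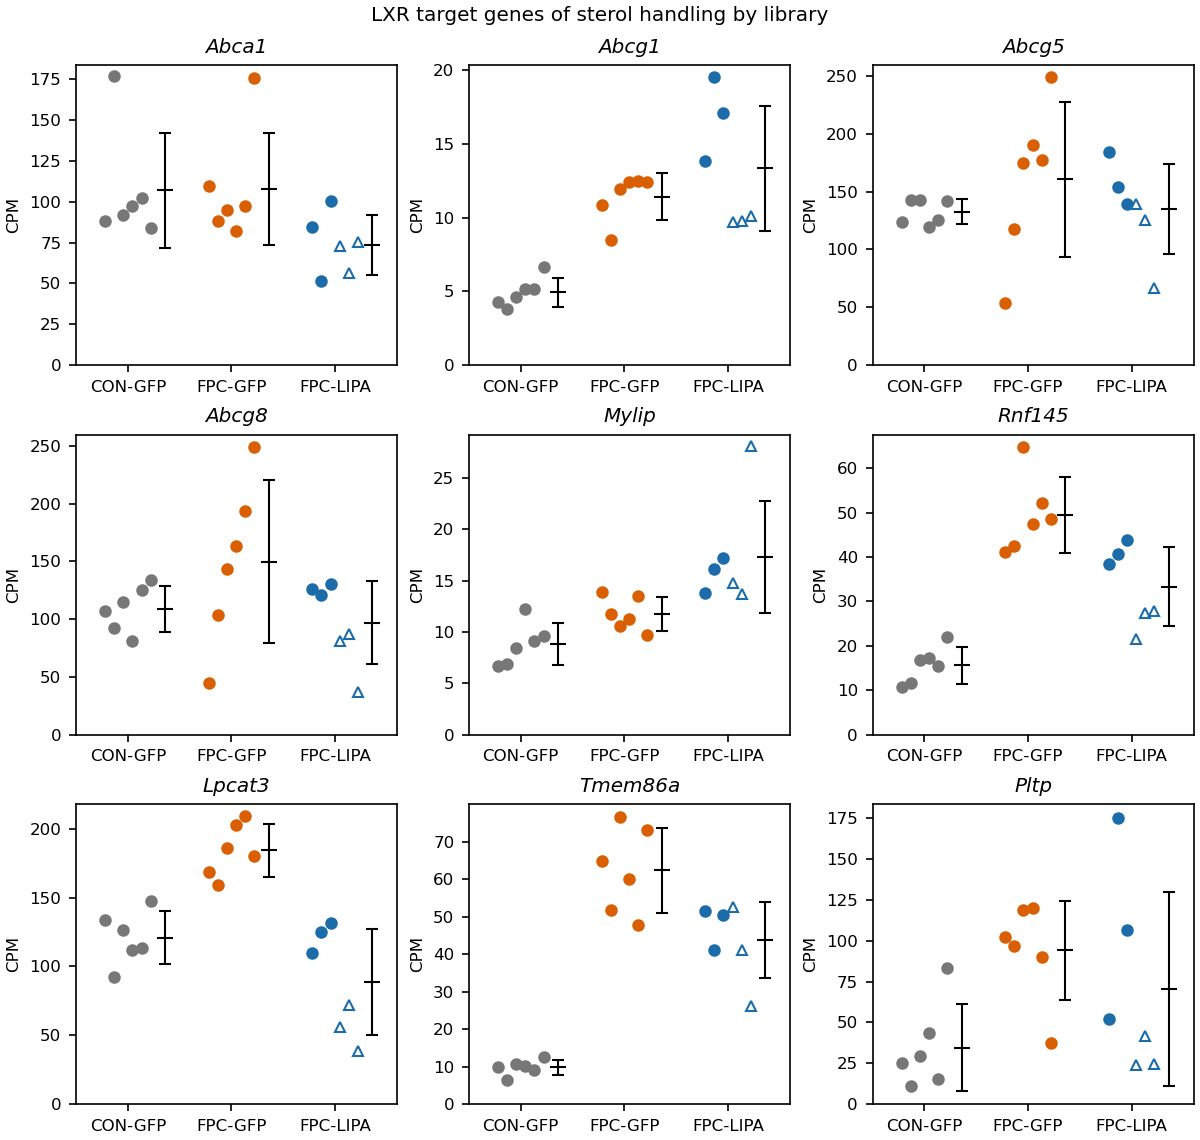
Level of each gene in CPM (y axis, linear from 0) in the 6 libraries of each group (x axis), with the mean and SD in black; open triangles are FPC-LIPA 36, 39 and 37b. Tmem86a, Rnf145, Abcg1 and Lpcat3 show no overlap between CON-GFP and FPC-GFP, and the open triangles lie below the other 3 FPC-LIPA libraries for Abcg1, Abcg5, Abcg8, Rnf145, Lpcat3 and Pltp. For Abcg5 liver 36 (139.3 CPM) and liver 34 (139.5 CPM) are nearly level.

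The second comparison asked what LIPA added under the FPC diet. Against FPC-GFP, FPC-LIPA livers had negative fold changes for 7 of the 9 genes. Lpcat3 fell and Mylip rose, so 1 of 9 passed in each direction, where 14.4% of the 14620 genes tested rose and 6.87% fell. Lpcat3 alone was DE, against 10.3% of all genes DE higher and 1.11% DE lower. The median log2 fold change was −0.46 over the 9 genes and 0.041 over all genes tested. With livers 31, 33 and 34 as the only FPC-LIPA livers neither call held, and 4 of the 9 genes had an unadjusted p under 0.05 (edgeR), against 18.5% of all genes in that fit. With all 6 FPC-LIPA livers 5 of the 9 and 39.8% of all genes did.

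Lpcat3 lay between 38.5 and 132 CPM (median 90.7) in FPC-LIPA, below the lowest FPC-GFP liver at 159 CPM. It was the only 1 of the 9 genes whose groups did not overlap, against 7.66% of all genes tested. The fold was 0.494 (log2 fold change −1.02, SE 0.25, adjusted p = 0.0193, edgeR). Livers 36, 39 and 37b were at 55.9, 71.9 and 38.5 CPM, and livers 31, 33 and 34 at 109.5, 125 and 132 CPM. With 31, 33 and 34 as the only FPC-LIPA livers, the log2 fold change was −0.58 and the adjusted p 0.0610, and with sheet numbers from 55 to 68 alone it was −0.87 with an adjusted p of 0.0693, so the call was lost in both. The fold also came to less than 2, though still past the test, on leaving out any of FPC-LIPA 36, 39 and 37b or FPC-GFP 16 and 19.

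Mylip was at 17.3 ± 5.48 CPM in FPC-LIPA and 11.8 ± 1.65 CPM in FPC-GFP (log2 fold change 0.62, SE 0.21, adjusted p = 0.0470, edgeR). Liver 37b was highest at 28.1 CPM, next to 17.2 CPM in liver 34, and the lowest FPC-LIPA liver, at 13.7 CPM, lay below the highest FPC-GFP liver at 13.9 CPM. The call did not hold without 37b (log2 fold change 0.39, adjusted p = 0.0873), with 31, 33 and 34 alone (0.43, adjusted p = 0.148) or with sheet numbers from 55 to 68 (0.35, adjusted p = 0.150). With each of the 12 libraries left out in turn it held only without FPC-LIPA 31 (adjusted p = 0.0396) and without FPC-LIPA 33 (adjusted p = 0.0311), and it held in 9 of the 24 alternatives.

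Of the genes that rose on the FPC diet, Tmem86a lay between 26.1 and 52.4 CPM (median 45.8) in FPC-LIPA (log2 fold change −0.46, SE 0.19, adjusted p = 0.0842, edgeR) and Rnf145 at 33.3 ± 8.92 CPM (−0.52, SE 0.19, adjusted p = 0.0568). Neither passed the test. Rnf145 passed in 6 of the 24 alternatives, namely the DESeq2 Wald test (adjusted p = 0.0342), the edgeR exact test (0.0486), the fit of all 18 libraries (0.0421), the GC trend removed (0.0402) and leaving out FPC-LIPA 33 (0.0289) or 34 (0.0357). Tmem86a passed in 1 of 24, with the length trend removed (log2 fold change −0.65, adjusted p = 0.0362), and was at −0.13 (adjusted p = 0.676) with the GC trend removed. With livers 31, 33 and 34 alone the log2 fold change was −0.38 for Tmem86a and −0.26 for Rnf145. For Rnf145 the livers 36, 39 and 37b at 21.4 to 27.9 CPM lay below 31, 33 and 34 at 38.5 to 43.8 CPM. Abcg1 was at 13.3 ± 4.23 CPM (log2 fold change 0.27, SE 0.20, adjusted p = 0.311, edgeR) and Pltp at 70.7 ± 59.4 CPM (−0.38, SE 0.43, adjusted p = 0.531). Pltp ran from 24.2 CPM in liver 36 to 175 CPM in liver 33, and with 31, 33 and 34 alone its log2 fold change was 0.27, so its direction rests on the other 3 livers. That of Abcg1 was 0.57 there. Abca1 was at 73.6 ± 18.2 CPM, against 108 ± 34.4 CPM with the GFP vector (−0.51 on the log2 scale, SE 0.23, adjusted p = 0.109, edgeR), and its log2 fold change with 31, 33 and 34 alone was −0.45.

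Within FPC-LIPA, 6 of the 9 genes lay higher in each of livers 31, 33 and 34 than in each of 36, 39 and 37b, and none lay lower in all of them. Of the 14620 genes tested, 27.6% were higher and 21.1% lower in this way. The 6 genes were Abcg1, Abcg5, Abcg8, Rnf145, Lpcat3 and Pltp. For Abcg5 the sets nearly met, with liver 34 at 139.5 CPM and liver 36 at 139.3 CPM. For Abcg8 the levels were 121 to 130.4 CPM against 37.3 to 87.1 CPM, and for Abcg1 13.8 to 19.6 CPM against 9.72 to 10.1 CPM. The ribosomal share and the length slope moved with these values and their part in them was not tested.

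**Figure D2:**
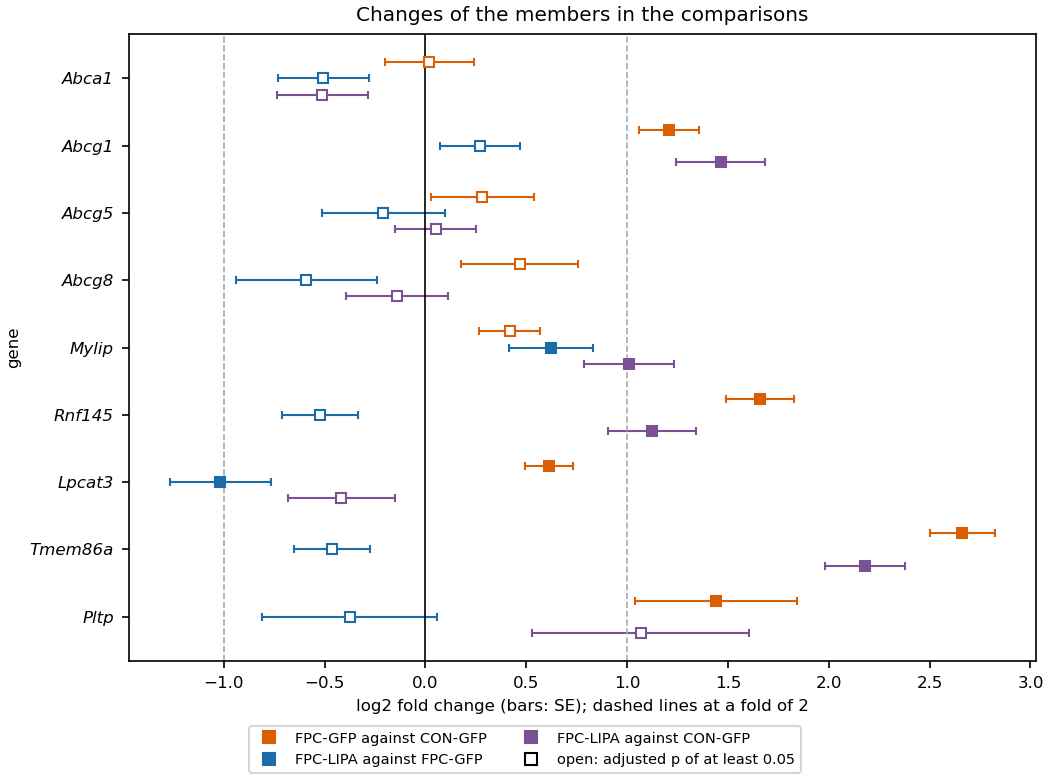
Log2 fold change (x axis, bars are SE) of each of the 9 genes (y axis) in the 3 comparisons, filled where the adjusted p is under 0.05, with dashed lines at a fold of 2. In FPC-GFP against CON-GFP 5 genes are filled, from Lpcat3 at 0.61 to Tmem86a at 2.66, and in FPC-LIPA against FPC-GFP only Mylip at 0.62 and Lpcat3 at −1.02 are.

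Because Abcg5 and Abcg8 are counted in the same library, their ratio needs no scaling. The log2 ratio of Abcg5 to Abcg8 counts was 0.30 ± 0.25 (SD, n = 6) in CON-GFP, 0.14 ± 0.16 in FPC-GFP and 0.52 ± 0.27 in FPC-LIPA. Between FPC-GFP and CON-GFP the difference was −0.16 (2-sided exact permutation test over 924 splits, p = 0.221, adjusted over the 2 comparisons 0.221). FPC-LIPA was 0.39 above FPC-GFP (exact permutation p = 0.0195, adjusted 0.0390, where the smallest p possible is 0.00216). The linear ratio was highest in 37b (1.78) and 36 (1.72), and with 31, 33 and 34 as the only FPC-LIPA livers the difference was 0.20 with an adjusted exact permutation p of 0.221. With sheet numbers from 55 to 68 it was 0.30 with an adjusted exact permutation p of 0.143. The adjusted p was also above 0.05 (0.0519 to 0.0779) on leaving out any 1 of FPC-GFP 12, 19 and 20 or FPC-LIPA 31, 36, 39 and 37b. The exons of Abcg8 span 3749 bases and those of Abcg5 2712 bases, and 37b and 36 are also 2 of the 3 livers whose levels fell with gene length. The ratio of the third, liver 39 (1.44), lay above that of every FPC-GFP liver (0.915 to 1.22). It lay below those of CON-GFP 2 (1.55), CON-GFP 6 (1.48) and FPC-LIPA 31 (1.46). The part of gene length in the ratio was not tested. Neither gene passed the test in FPC-LIPA against FPC-GFP, at log2 fold changes of −0.21 for Abcg5 (SE 0.30, adjusted p = 0.626, edgeR) and −0.59 for Abcg8 (SE 0.35, adjusted p = 0.217), which with 31, 33 and 34 alone were −0.0080 and −0.25.

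**Figure D3:**
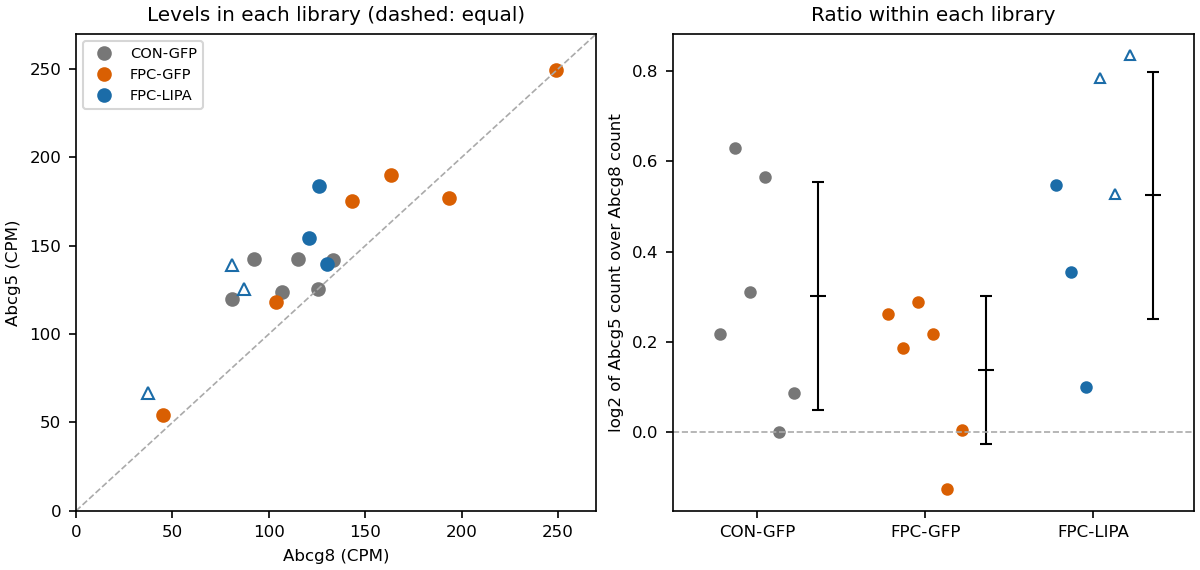
Left, Abcg5 against Abcg8 in CPM in the 18 libraries, with a dashed line where they are equal; right, the log2 ratio of their counts by group, with the mean and SD; open triangles are FPC-LIPA 36, 39 and 37b. Both genes run together from FPC-GFP 11 (54.0 and 45.1 CPM) to FPC-GFP 20 (249 CPM each), and the highest ratios are those of 37b and 36.

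FPC-LIPA set against CON-GFP differs in diet and vector at once and shares its libraries with both other comparisons. In it 4 of the 9 genes rose and were DE: Tmem86a (log2 fold change 2.18), Abcg1 (1.46), Rnf145 (1.12) and Mylip (1.01). Of the 14433 genes tested 14.7% rose, 8.20% fell and 15.1% were DE in either direction. Pltp was higher by 1.07 on the log2 scale (SE 0.54, adjusted p = 0.156, edgeR) and did not pass. Lpcat3 had a log2 fold change of −0.42 (adjusted p = 0.259), and the level of 88.8 ± 38.7 CPM in FPC-LIPA stood beside 121 ± 19.2 CPM in CON-GFP. Without livers 36, 39 and 37b the log2 fold change of Lpcat3 was 0.035 and that of Pltp 1.70 (adjusted p = 0.0380), while Tmem86a was at 2.28, Abcg1 at 1.78, Rnf145 at 1.40 and Mylip at 0.85, all of them past the test.

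Levels of different genes were compared as CPM per kilobase of exon. In CON-GFP the order ran from Abcg5 (48.9 ± 3.97 CPM per kb) through Lpcat3 (37.0 ± 5.88), Abcg8 (29.1 ± 5.32), Pltp (13.5 ± 10.3), Abca1 (10.3 ± 3.39), Tmem86a (5.23 ± 1.04), Mylip (2.73 ± 0.627) and Rnf145 (2.01 ± 0.534) to Abcg1 (0.678 ± 0.135). Neighbours in this order overlapped in their ranges over the 6 livers, except Abca1 and Tmem86a and again Rnf145 and Abcg1. In FPC-GFP Tmem86a stood at 33.0 ± 6.05 CPM per kb, above Abca1 at 10.4 ± 3.32, and their ranges did not overlap there either. Rnf145 at 6.35 ± 1.10 CPM per kb stood above Mylip at 3.65 ± 0.512, likewise without overlap. Abcg5 was first and Abcg1 last in all 3 groups.

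Likeness in pattern was measured as the root mean square (RMS) difference of log2 CPM, each gene centred on its own mean, over the 18 livers. Among the 12734 other genes whose mean reached 1 CPM, the gene most like Abcg5 was Abcg8 (RMS 0.267), and Abcg5 was the second most like Abcg8 after Tlr5 (0.266). Rnf145 and Abcg1 were each other's nearest among the 9 (RMS 0.368), as the 15th most like gene for Rnf145 and the 77th for Abcg1. The gene most like Abcg1 outside the group was C1qa (0.224), a complement gene that is among the Kupffer cell markers summed below. Which cells the likeness comes from was not tested. For the others the nearest genes outside the group were S100a11 for Tmem86a (0.494), Ucp2 for Pltp (0.431), Hunk for Rnf145 (0.294), Ldlrad4 for Abcg5 (0.286), Rapgef6 for Abca1 (0.205), Ifngr1 for Mylip (0.196) and Cds2 for Lpcat3 (0.167). Points over the 18 livers share library and group, so the values describe these livers.

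Macrophages use several of these genes, and markers of other liver cells moved with the groups. The summed level of 8 Kupffer cell markers lay between 103 and 203 CPM in CON-GFP, between 255 and 415 in FPC-GFP and between 337 and 613 in FPC-LIPA. In FPC-GFP against CON-GFP 7 of the 8 rose, and with LIPA 3 rose and 1 fell. The 10 monocyte and macrophage markers summed to between 89.9 and 162 CPM, between 191 and 495, and between 586 and 882 in the same order of groups. Of these 8 rose on the FPC diet and 6 rose with LIPA. The 6 hepatocyte markers summed to between 62684 and 88238 CPM in CON-GFP, between 54495 and 77064 in FPC-GFP and between 42714 and 67376 in FPC-LIPA, with 1 lower in each of the first 2 comparisons and none higher. None of these macrophage or hepatocyte markers had a group mean of 0. The part of a changed cell makeup in the values of the 9 genes was not tested.

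Red blood cell markers (4 genes) summed to between 168 and 491 CPM in CON-GFP, 165 and 373 in FPC-GFP and 426 and 2502 in FPC-LIPA, with 2 higher with LIPA. The highest sums were those of FPC-LIPA 36, 39 and 37b (1668, 2502 and 1715.5 CPM), and livers 31, 33 and 34 were at 666, 845 and 426 CPM. Endothelial markers (6 genes) gave 133 to 214, 192 to 234 and 214 to 321 CPM, with 3 of 6 higher on the FPC diet and none past the adjusted threshold with LIPA (edgeR, 1 at an unadjusted p under 0.05). Stellate cell markers (6 genes) gave 168 to 281, 213 to 292 and 303 to 970.5 CPM, with 2 higher on the FPC diet and 3 with LIPA. The value of 970.5 CPM was that of liver 37b, and the other FPC-LIPA livers lay between 303 and 464 CPM. None of the marker calls with LIPA was examined with livers 31, 33 and 34 alone. Neutrophil markers (4 genes, among them Ly6g, which had a mean of 0 in CON-GFP and in FPC-LIPA) gave 1.72 to 3.81, 2.43 to 5.89 and 6.86 to 17.9 CPM, with 2 higher with LIPA. Sums of the 6 B and T cell markers and of the 4 cholangiocyte markers were at or below 16.3 CPM in every liver, with 1 B and T cell marker lower on the FPC diet and 1 higher with LIPA.

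The receptors themselves were examined with their partners. Of 7 genes for LXRs, RXRs and co-regulators none passed the test on the FPC diet (edgeR, 1 at an unadjusted p under 0.05), while 3 fell with LIPA. Of the 12 genes outside the 9 that are named from here on as changed with LIPA, 1, Cd5l, still passed with livers 31, 33 and 34 as the only FPC-LIPA livers, and the 12 kept their direction there. Their log2 fold changes with these 3 livers were −0.63 for Rxra, −0.40 for Ncoa1, −0.38 for Ncor1, −1.31 for Cyp7b1, −0.50 for Fasn, 1.23 for Lpl, 0.20 for Apoc1, 1.08 for Cd5l, 0.54 for Smpdl3a, −0.35 for Srebf2, 0.53 for Npc2 and −0.57 for Npc1. Over the 24 alternatives the call held in 22 for Rxra, Lpl, Smpdl3a, Npc1 and Npc2, in 19 for Cd5l, in 15 for Cyp7b1 and Apoc1, in 13 for Ncoa1, Ncor1 and Srebf2, and in 6 for Fasn. Of the calls on the FPC diet named from here on, those of Cyp7b1 and Abcb4 held in 9 of the 23 alternatives, Vldlr in 17, Sqle in 18, Scd1 in 20, Gramd1b and Lss in 22, and those of Cyp46a1, Srebf1, Fasn, Lpl and Cd5l in 23. Nr1h3, which encodes LXRα, was at 134 ± 13.1 CPM in CON-GFP, 125 ± 17.8 in FPC-GFP and 143 ± 49.4 in FPC-LIPA and passed neither test. Rxra, which encodes the main RXR of liver, was at 359 ± 59.9 CPM in FPC-GFP and 181 ± 62.5 in FPC-LIPA, lower by −0.95 on the log2 scale (SE 0.23, adjusted p = 0.0183, edgeR) with no overlap between the groups. Ncoa1, a co-activator (log2 fold change −0.62, adjusted p = 0.0306), and Ncor1, a co-repressor (−0.62, adjusted p = 0.0353), fell as well.

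Among 5 genes that make or remove oxysterols, 3 were tested and 2 fell on the FPC diet. Cyp7b1, which hydroxylates oxysterols towards bile acids, was at 194 ± 114 CPM in CON-GFP, 90.4 ± 45.5 in FPC-GFP (log2 fold change −1.08, adjusted p = 0.0495) and 43.4 ± 14.9 in FPC-LIPA (−1.01, adjusted p = 0.0328). Cyp46a1, cholesterol 24-hydroxylase, fell on the FPC diet, from a mean of 16.7 to one of 5.92 CPM (log2 fold change −1.50, adjusted p = 0.00590). Cyp27a1, sterol 27-hydroxylase, was at 335 ± 54.4 CPM in FPC-GFP and 241 ± 85.8 in FPC-LIPA (log2 fold change −0.43, adjusted p = 0.165).

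Of 8 other LXR targets of lipid synthesis and lipolysis, 6 rose on the FPC diet, and 2 rose and 2 fell with LIPA. Srebf1 and Fasn, whose promoter windows hold the letters shown above, rose on the FPC diet, Srebf1 from 164 ± 45.2 to 457 ± 79.7 CPM (log2 fold change 1.49, adjusted p = 0.000198) and Fasn from 216 ± 130.3 to 719 ± 107 CPM (1.74, adjusted p = 0.00260). Abca1, with the same 16 letters as Fasn, had a log2 fold change of 0.020 there and Rnf145 one of 1.66. Fasn fell with LIPA to 421 ± 152 CPM (log2 fold change −0.72, adjusted p = 0.0442), and Srebf1 was at 296 ± 126 CPM and did not pass (−0.58, adjusted p = 0.114). Scd1, stearoyl-CoA desaturase, rose on the FPC diet from 11747 ± 6028 to 30581 ± 5179 CPM, and Lpl, lipoprotein lipase, rose in both comparisons, with log2 fold changes of 2.11 and 1.79.

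Of 8 LXR targets described in macrophages 3 rose on the FPC diet and 3 with LIPA. Cd5l, a secreted macrophage protein, rose in both (log2 fold changes 1.52 and 0.92). Gramd1b, a carrier of plasma membrane cholesterol, rose on the FPC diet (0.85, adjusted p = 0.0140), while Smpdl3a (1.63, adjusted p = 0.0153) and Apoc1 (1.26, adjusted p = 0.0253) rose with LIPA. With livers 31, 33 and 34 alone neither call held, at 0.54 for Smpdl3a (adjusted p = 0.0998) and 0.20 for Apoc1 (adjusted p = 0.430). Apoe, at 21842 ± 3143 CPM in FPC-GFP and 15834 ± 7085 in FPC-LIPA, passed neither test.

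Of lipoprotein receptors that Mylip marks, Vldlr rose on the FPC diet as RNA (log2 fold change 1.18, adjusted p = 0.0276), from 4.01 ± 1.67 to 9.17 ± 5.55 CPM, and was at 12.4 ± 1.93 CPM with LIPA (0.50, adjusted p = 0.247). Lrp8 was too low to be tested. In the SREBP2 pathway of cholesterol synthesis 2 of 8 genes rose on the FPC diet, Lss, lanosterol synthase (0.61, adjusted p = 0.0163), and Sqle, squalene epoxidase (1.28, adjusted p = 0.0281). With LIPA 1 of the 8 fell, Srebf2, which encodes SREBP2 itself (−0.65, adjusted p = 0.0310). Hmgcs1, HMG-CoA synthase, was at 86.0 ± 21.6 CPM in FPC-GFP and 117 ± 59.9 in FPC-LIPA. Insig1 was at 155 ± 35.6 CPM in FPC-GFP and 153 ± 29.4 in FPC-LIPA.

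Of 10 genes of other sterol transport and esterification 9 were tested, and 1 rose on the FPC diet, Abcb4, the phosphatidylcholine exporter of bile (log2 fold change 0.37, adjusted p = 0.0434). With LIPA, Npc2 rose (0.72, adjusted p = 0.0167) and Npc1 fell (−0.66, adjusted p = 0.0173), which together pass cholesterol out of the lysosome. Apoa1, the acceptor of cholesterol from Abca1, was at 6946 ± 1532 CPM in FPC-GFP and 8982 ± 1800.2 in FPC-LIPA (adjusted p = 0.142), and Abcb11, the bile salt exporter, at 375 ± 60.7 and 321 ± 78.7 CPM (adjusted p = 0.528).

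**Figure D4:**
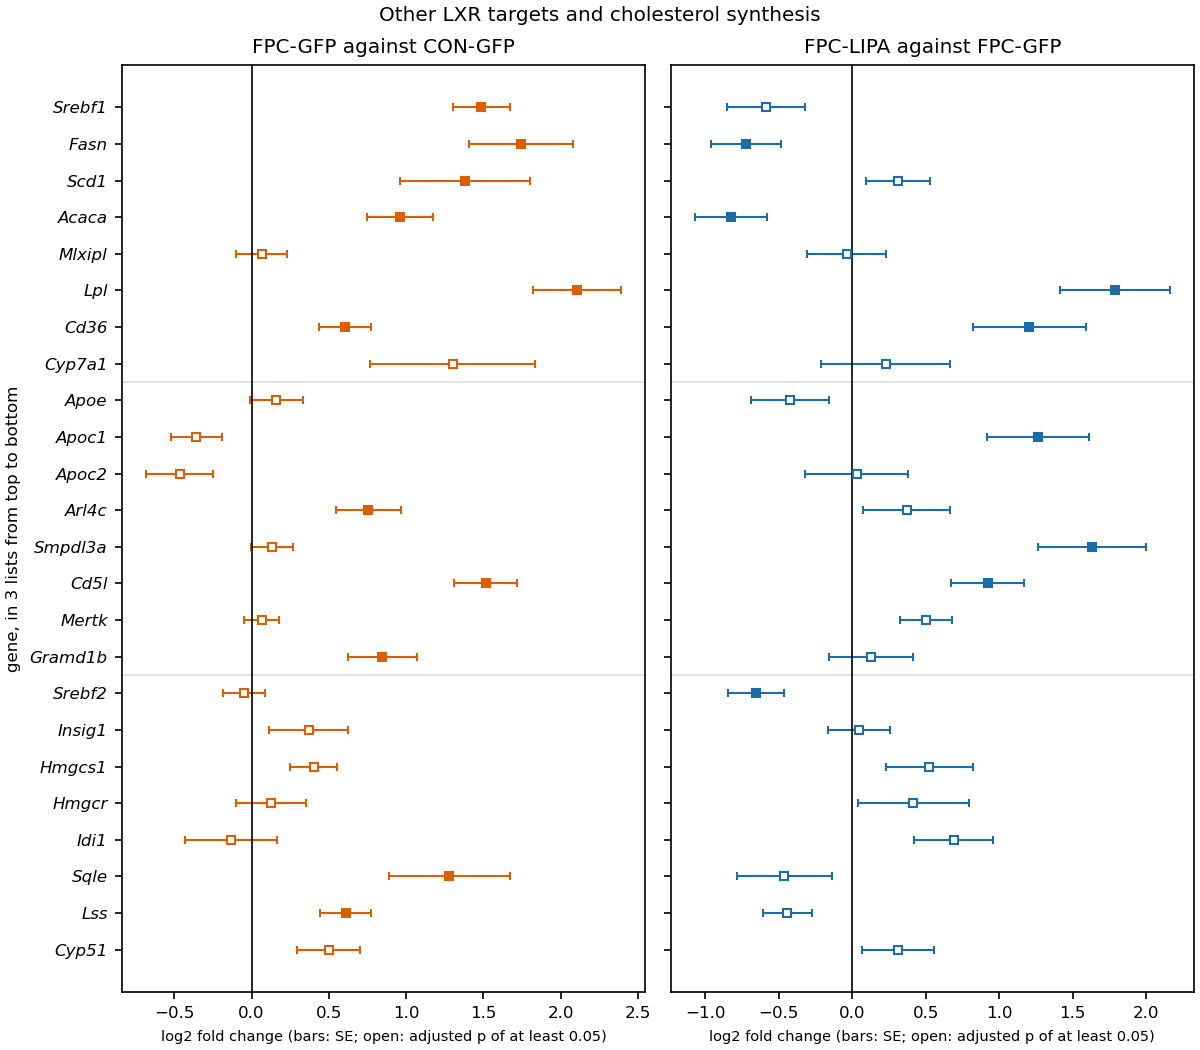
Log2 fold change (x axes, bars are SE) of genes in 3 further lists (y axis, from top to bottom other LXR targets of lipid synthesis, LXR targets described in macrophages, SREBP2 pathway) in FPC-GFP against CON-GFP (left) and FPC-LIPA against FPC-GFP (right), filled where the adjusted p is under 0.05. On the left Lpl reaches 2.11 and Srebf1 lies at 1.49, and on the right Fasn lies at −0.72 and Smpdl3a at 1.63.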

How the data were processed

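The authors isolated liver RNA, made TruSeq libraries with a stranded or an unstranded kit, trimmed paired reads with Trimmomatic, mapped them with HISAT2 2.1.0 to GRCm38 and counted reads per gene with Feature Counts. The values deposited by the authors and used here are these raw counts, with no normalization, for 55487 genes. Which kit each library had, the strand setting and the annotation are not given in the sources used here. Without strand, reads from exons shared with a gene on the other strand cannot be assigned, which concerns 82 bases of Abcg5 and Abcg8, 334 bases of Lpcat3 (10.2%, with Emg1) and 495 bases of Pltp (19.3%, with Ctsa). The table also holds 5 count columns of other vectors, which did not enter any step.

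Each comparison was fitted on its 12 libraries with edgeR 4.0.16 in R 4.3.3 (filterByExpr, TMM, quasi-likelihood test, Benjamini-Hochberg adjustment over all genes tested). All 9 members passed the filter on low counts in every comparison. DE is the study's threshold, an adjusted p under 0.05 and a fold of at least 2. CPM values were scaled by TMM over 18 libraries, log2 CPM used a prior count of 2, and SE is the log2 fold change over the square root of F. Exonic length came from GENCODE M21 on GRCm38. On simulated counts with 200 genes changed 2-fold, the test recovered 180 of them in FPC-GFP against CON-GFP (14163 genes tested) and 78 in FPC-LIPA against FPC-GFP (14495 genes tested). The changed genes were drawn from those above a minimum mean CPM, and each library was drawn independently. The recovery therefore does not cover low genes or the shared shift of livers 36, 39 and 37b. Libraries of a group differed by 15.4 to 591 in chi-square per degree of freedom, so none were duplicates and errors are over mice. Mouse numbers are not shared between groups and pair no samples.

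The members and gene lists were chosen with earlier results of these data known. Some listed genes are not reported here and were left out of the counts and plots of their lists. All members are named, and of each other list the 2 most abundant genes by CPM and up to 3 with the smallest adjusted p under 0.05 in the first 2 comparisons. Fasn and the marker Ly6g were named after values were seen. Alternatives were other scalings (DESeq2 1.42.0 size factors, upper quartile, library size), the DESeq2 Wald and edgeR exact tests, another or no cut on low counts (1 CPM in 6 libraries), 1 fit of all 18 libraries, sheet numbers 55 to 68, length and GC trends removed, other thresholds, and each library left out. A fit with livers 31, 33 and 34 as the only FPC-LIPA livers was chosen after seeing the data.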

Additional observations from a re-analysis of the deposited data

Results flagged for a closer look

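Of the 27 pairs of a gene and a group, 4 had a highest or lowest liver whose gap to the next exceeded Dixon's 95% critical value of 0.625 for 6 samples, and chance flags about 1 in 20 such pairs. Abca1 was at 177 CPM in CON-GFP 2, next to 103 CPM, and at 176 CPM in FPC-GFP 20, next to 109 CPM. Pltp was at 37.4 CPM in FPC-GFP 20, next to 89.9 CPM. Mylip was at 28.1 CPM in FPC-LIPA 37b, next to 17.2 CPM. All 3 libraries have sheet numbers outside 55 to 68, as does CON-GFP 1, which was not flagged for any of the genes. Without FPC-GFP 20 the log2 fold change of Abca1 in FPC-GFP against CON-GFP was −0.19 (adjusted p = 0.480, edgeR), and without 37b that of Mylip in FPC-LIPA against FPC-GFP was 0.39 (adjusted p = 0.0873).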

How the results depend on the processing

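Of the alternatives for the fold changes of the 9 genes, 591 kept the direction and the side of the threshold, 19 lost a call, 14 gained one and 15 turned the direction. The calls for Tmem86a, Rnf145 and Abcg1 on the FPC diet held in every alternative run. Where a call was lost the cause was not tested, apart from fits with fewer libraries. Scaling by library size alone moved the median of all genes on the FPC diet from 0.012 to 0.21, and that of the 9 genes from 0.61 to 0.82. In the fit of all 18 libraries 3 of the 9 genes passed on the FPC diet, beside 1352 of all 14963 genes tested.

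With LIPA against FPC-GFP, 1 gene of the 9 passed with library size alone, beside 1438 of all 14620 genes tested. With no filter 1 passed, beside 2339 of 25543 genes. With sheet numbers 55 to 68 it was 0 (3 at an unadjusted p under 0.05, edgeR, against 30.0% of all genes), beside 104 of 14736. With 31, 33 and 34 alone it was 0, beside 186 of 15246. When 1 library was left out between 1 and 3 passed. All genes past the threshold then ran from 1092 of 14746 without liver 36 to 5582 of 14696 without liver 33. The count of DE genes among the 9 was 0 with upper-quartile factors, at least 1 CPM in 6 libraries, sheet numbers 55 to 68, the GC trend removed, 31, 33 and 34 alone or an adjusted p under 0.01, and 2 with a fold of at least 1.5, and between 0 and 1 when 1 library was left out. DE genes among all genes numbered 1671 of 14620 in the main fit. They numbered 1706 with upper-quartile factors, 1500 of 12780 with at least 1 CPM in 6 libraries and 1316 with the GC trend removed. There were 96 with sheet numbers 55 to 68, 116 with 31, 33 and 34 alone and 1016 with library size alone. With 1 library left out they ran from 856 without liver 36 to 2612 without liver 33. Genes past the adjusted p numbered 4701 of 14963 in the fit of all 18 libraries. On the FPC diet 1352 genes passed in the fit of all 18 libraries and 1995 with sheet numbers 55 to 68. Against CON-GFP, FPC-LIPA with sheet numbers 55 to 68 left 2 of the 9 genes DE, and over all 14914 genes tested 1107 DE and 1402 past the adjusted p. The median of the 9 genes there was 0.54 without liver 33 and at most 1.12 without another library. The ratio of Abcg5 to Abcg8 with LIPA was 0.30 (sheet numbers 55 to 68) and 0.20 (31, 33 and 34 alone), past the threshold in neither, and between 0.32 and 0.47 when 1 library was left out.

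Directions turned, none of them past the threshold, as follows. On the FPC diet, library size alone gave 0.10 for Nr1h3, 0.081 for Cyp27a1, 0.11 for Apoa1 and 0.15 for Srebf2. Ncor1 was at −0.0016 with DESeq2 size factors, −0.0017 with the DESeq2 Wald test and −0.011 with the length trend removed. Apoa1 was at 0.098 with sheet numbers 55 to 68 and 0.030 with the length trend removed, where Abca1 was at −0.029, and the GC trend gave −0.086 for Rxra and −0.073 for Apoe. With 1 library left out Abca1 ran from −0.19 to 0.23, Apoa1 from −0.17 to 0.044, Ncor1 from −0.037 to 0.060 and Srebf2 from −0.12 to 0.025. With LIPA, Insig1 was at −0.13 with library size alone, −0.021 with no filter and −0.19 with 31, 33 and 34 alone, where Pltp was at 0.27 and Abcb11 at 0.026. Sheet numbers 55 to 68 gave 0.094 for Abcg5 and 0.056 for Cyp46a1, which was at 0.086 with the GC trend removed. With 1 library left out Gramd1b ran from −0.049 to 0.25 and Insig1 from −0.056 to 0.17. In FPC-LIPA against CON-GFP Abcg8 was at 0.0034 with library size alone and 0.22 with 31, 33 and 34 alone, where Lpcat3 was at 0.035, and Abcg5 was at −0.013 with the length trend removed. With 1 library left out Abcg5 ran from −0.049 to 0.18 and Abcg8 from −0.24 to 0.014.

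No paired analysis was possible because the groups share no mouse numbers. The ribosomal share and length slope of livers 36, 39 and 37b limit every comparison with FPC-LIPA, and Abcg1, at 3.83 to 6.66 CPM in CON-GFP, rests on the fewest counts.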
